A study of Mus musculus with 6 samples.

Results

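Kinesins are motor proteins that move along microtubules or shorten them, and their genes were read here on arrays of sorted hematopoietic stem cells (HSCs). The members are the measured genes whose symbol begins with Kif and a digit. There were 38 of them among 23185 genes with a symbol. Of these, 11 act mainly in cell division (Kif2c, Kif4, Kif11, Kif14, Kif15, Kif18a, Kif18b, Kif20a, Kif20b, Kif22 and Kif23), and the other 27 form the comparison set. That set holds transport and ciliary motors, Kif2a and Kif2b, which also work at the spindle, and Kif4-ps, a transcribed pseudogene of Kif4.

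The arrays compare 3 preparations from Merit40-/- mice with 3 from wild-type (WT) mice. Merit40, encoded by Babam1, is a subunit that the BRISC and BRCA1-A deubiquitinating complexes share, and the comparison asks how its loss alters expression in these cells. The mice were young adults, and bone marrow was sorted in 2 rounds for CD150+CD48-LSK cells, where LSK stands for lack of lineage markers with Sca-1 and c-Kit present. The labels name no treatment, Cre line, strain or sex, and they do not give the number of mice behind an array, so p-values measure the spread between these 3 arrays a genotype. Values are log2 expression levels after RMA, which corrects background, quantile-normalizes the arrays and sums up the probes of a gene. They follow a gene across arrays but do not rank the amounts of different transcripts.

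In mitosis, kinesins separate the spindle poles, move and align chromosomes, set the length of microtubules and build the central spindle on which the cell divides. Most of these genes are transcribed in the G2 and M phases, so their transcripts mark dividing cells, whereas transport kinesins carry vesicles and organelles in resting cells as well. Adult HSCs are known to be mostly quiescent. In bulk RNA of this kind, fewer dividing cells and less RNA per dividing cell cannot be told apart.

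Most, but not all, promoters searched for the mitotic members hold a short element that the choice of members did not use. The cell cycle genes homology region (CHR), TTTGAA, binds the DREAM and MuvB complexes that time G2 and M phase transcription, and the CCAAT box binds the factor NF-Y. RefSeq promoter windows (GRCm38.p6, 250 bases before to 50 after the gene start) were found for 10 of the 11 mitotic members and 21 of the other 27. Searched on both strands, TTTGAA was present in 9 of the 10 mitotic windows (90%), in 3 of 21 other kinesin genes (14.3%) and in 3100 of 17452 genes (17.8%). Within 50 bases on either side of the start, a distance chosen after the search, it was present in 7 of 10 mitotic members (70%), in 2 of 21 others (9.52%) and in 4.62% of all genes. CCAAT was found in 6 of 10 mitotic windows (60%), in 8 of 21 others (38.1%) and in 41.9% of all genes. Both elements stood together in 6 of 10 mitotic windows (60%), in 2 of 21 others (9.52%) and in 8.12% of all genes. The E2F core GCGGGAA was found in 0 of 10 mitotic windows, 2 of 21 others (9.52%) and 6.87% of all genes. In the mitotic windows no match overlapped a match of another element. These are matches of letters, and no binding was measured.

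The stretches from 70 bases before to 50 after the start are shown for the 7 mitotic members with a CHR near it, and for Kif18a, the member with the most negative difference, whose window held neither element. Each reads 5′ to 3′ along the gene, and capitals mark TTTGAA or its reverse complement TTCAAA and CCAAT or its reverse complement ATTGG. The positions in GRCm38.p6 are chr19:37376312-37376431 (+ strand) for Kif11, chr7:127042371-127042490 (- strand) for Kif22, chr9:122951011-122951130 (+ strand) for Kif15, chr11:102925075-102925194 (- strand) for Kif18b, chr9:61946750-61946869 (- strand) for Kif23, chr19:34922288-34922407 (+ strand) for Kif20b, chrX:100625995-100626114 (+ strand) for Kif4 and chr2:109280668-109280787 (+ strand) for Kif18a.
Kif11: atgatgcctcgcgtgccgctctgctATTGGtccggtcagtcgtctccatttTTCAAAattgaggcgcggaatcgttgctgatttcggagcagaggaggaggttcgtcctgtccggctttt
Kif22: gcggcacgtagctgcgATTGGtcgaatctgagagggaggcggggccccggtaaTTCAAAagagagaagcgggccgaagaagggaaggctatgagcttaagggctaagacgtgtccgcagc
Kif15: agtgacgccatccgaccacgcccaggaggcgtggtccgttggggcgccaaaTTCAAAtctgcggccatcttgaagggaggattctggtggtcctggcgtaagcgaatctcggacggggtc
Kif18b: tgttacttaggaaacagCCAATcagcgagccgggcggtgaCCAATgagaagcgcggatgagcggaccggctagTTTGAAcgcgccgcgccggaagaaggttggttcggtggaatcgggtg
Kif23: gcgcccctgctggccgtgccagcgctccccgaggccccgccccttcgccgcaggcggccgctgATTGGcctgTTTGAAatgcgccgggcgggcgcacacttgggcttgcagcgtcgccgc
Kif20b: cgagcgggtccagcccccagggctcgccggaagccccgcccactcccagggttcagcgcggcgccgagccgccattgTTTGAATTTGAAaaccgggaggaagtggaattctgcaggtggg
Kif4: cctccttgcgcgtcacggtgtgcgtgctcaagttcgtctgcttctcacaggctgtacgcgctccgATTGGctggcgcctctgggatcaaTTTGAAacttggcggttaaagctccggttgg
Kif18a: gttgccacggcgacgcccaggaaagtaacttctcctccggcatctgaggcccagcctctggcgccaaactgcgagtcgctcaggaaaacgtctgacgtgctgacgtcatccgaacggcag
Kif11 and Kif22 have the arrangement of a reverse CCAAT box followed by a reverse CHR, with the CHR beginning at -19 in Kif11 and at -17 in Kif22. Kif23 has its CHR at 3 and Kif18b at 4, and in Kif20b it is repeated back to back at 8 and 14. In Kif2c the one match lay at -103 and in Kif14 at -228, outside the stretches shown.

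**Figure D1:**
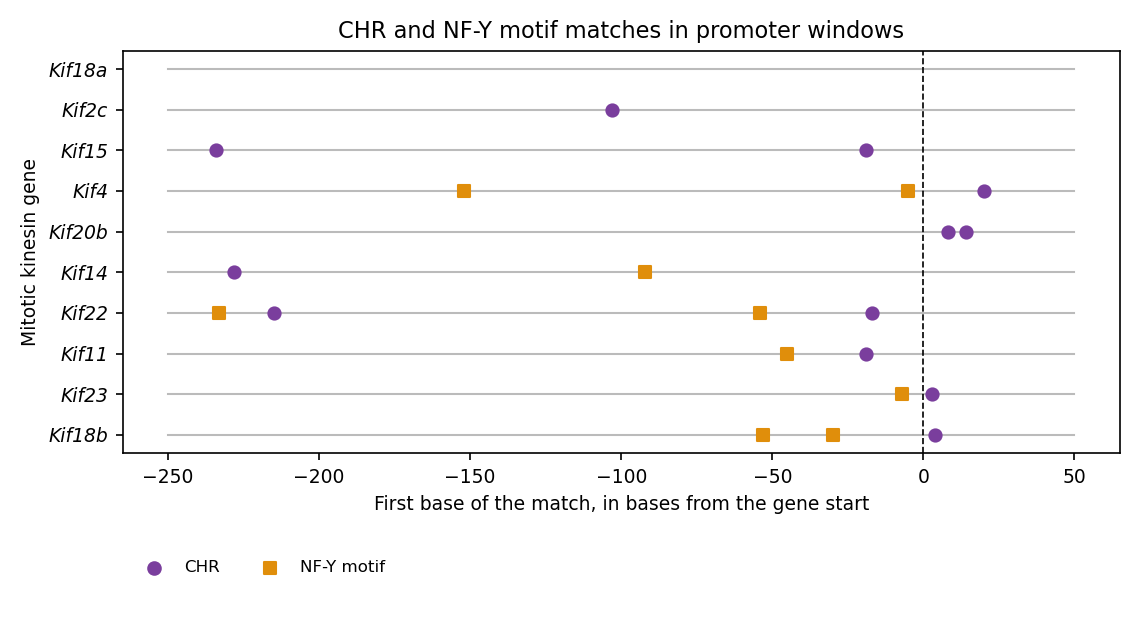
Positions of CHR (circles) and NF-Y motif (CCAAT box, squares) matches in the promoter windows of 10 mitotic kinesin genes. The x axis is the distance of the first base of a match from the gene start in bases, and the dashed line is the start. CHR matches of 7 genes lie within 50 bases of the start, and Kif18a has no match of either kind.

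No kinesin gene passed the test between genotypes, while all 11 mitotic members had a lower mean in Merit40-/- HSCs. In limma with Benjamini-Hochberg adjustment over all 23185 genes, 0 of 38 kinesin genes were called at an adjusted p under 0.05, where 0.00431% of all genes were called, that is 1 gene, Babam1 itself. At an unadjusted p under 0.05 there were again 0 of 38, against 4.22% of all genes, and the smallest adjusted p among the 38 was 0.999 in limma. Without Merit40-/- replicate 2, 5 of 11 mitotic and 1 of 27 other members had an unadjusted p under 0.05, against 4.65% of all genes. Without replicate 1 or without replicate 3 of Merit40-/-, 0 of 11 mitotic members did, against 4.89% and 4.64% of all genes. By mean deviation of the mitotic members, only replicate 2 of the Merit40-/- arrays lay inside the WT range. Leaving it out thus took away the Merit40-/- array most like WT in these genes, and still 0 kinesin genes were called. An unmoderated linear model also called 0 kinesin genes. The median difference was -0.27 for the mitotic members (11 of 11 lower) and -0.0033 for the others (14 of 27 lower). Over all genes the median difference was 0.0052, and 48.5% were lower. The gap between the medians of the mitotic and the other kinesin genes was -0.27, beside an SD of 0.22 between arrays of the same genotype for the gap between their means. This gap rests on 2 arrays. Without Merit40-/- replicates 1 and 3 the mitotic median was 0.028, with 5 members lower and 6 higher, and the gap to the other kinesin genes was 0.078. Without Merit40-/- replicate 3 alone the mitotic median was -0.17 and the gap -0.16, and without WT replicate 2 the gap was -0.14.

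The knockout itself was plain in these arrays. Babam1 read 4.29, 3.87 and 4.01 in Merit40-/- replicates 1 to 3, against 7.91, 8.04 and 8.05 in WT, and fell by 3.94 (SE 0.14, adjusted p = 5.04e-05 in limma). Array medians over all genes lay between 4.91 and 4.96. Of 10 measured HSC markers, 7 were higher and 3 lower in Merit40-/-, with 0 called. Among them, Kit, Hlf, Mecom and Slamf1, which encodes CD150, differed between genotypes by 0.09, 0.16, 0.26 and 0.18. Procr, Fgd5 and Tek differed the other way, by -0.06, -0.11 and -0.16. Of the HSC markers 10 of 10 averaged above the median level of all genes (4.93), but so did 11 of 11 granulocyte and 8 of 9 erythroid markers, so this level does not mark HSCs. Cd48, which the sort excludes, read 5.30, 4.99 and 5.88 in Merit40-/- against 5.58, 5.64 and 5.03 in WT. Merit40-/- replicate 1 stood apart in skeletal muscle genes, with a mean over 10 markers of 8.80 against 5.04 and 4.85 in the other Merit40-/- arrays and 4.65 to 4.92 in WT. Merit40-/- replicate 3 stood apart in osteoclast genes, with a mean over 7 markers of 5.42. That mean was 4.05 and 4.02 in the other Merit40-/- arrays and 3.85 to 3.996 in WT. Replicate 3 was the highest array in 5 of the 7, led by Ctsk (7.94) and Acp5 (7.91), but not in Dcstamp (3.58) or Calcr (3.51). Merit40-/- replicates 1 and 3 are also the 2 arrays with the lowest mean deviation of the mitotic kinesin genes. In WT replicate 3, 10 of these 11 genes also lay below their WT mean, by -0.18 on average over the 11. Its muscle mean was 4.88 and its osteoclast mean 3.97. The part of other cells in the kinesin values was not tested.

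The motors that push the spindle poles apart were lower on average in Merit40-/-, within the spread between arrays. Kif11 (Eg5), which slides antiparallel microtubules, read 8.13, 8.56 and 8.04 in Merit40-/- and 8.53, 8.51 and 8.19 in WT. The genotypes overlapped, since Merit40-/- replicate 2 was the highest of the 6 arrays, and the difference was -0.16 (SE 0.17). Kif15, which can take over from Kif11 in keeping the spindle bipolar, read 7.22, 7.77 and 6.96 in Merit40-/- and 7.77, 7.95 and 7.27 in WT. Here WT replicate 3 stood with the 2 lower Merit40-/- arrays, and the difference of -0.35 (SE 0.24) was no larger than the SD of the genotypes (0.41 in Merit40-/-, 0.35 in WT, n = 3 each).

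The regulators of microtubule length included the most negative differences of the family. Kif18a, which damps the movements of chromosomes at the spindle equator, read 6.60, 7.04 and 6.07 in Merit40-/-, against 7.13, 7.18 and 6.93 in WT. Its difference was -0.51 (SE 0.23, 95% interval -1.03 to 0.02), a WT level 1.42 times that of Merit40-/-, with an unadjusted p of 0.0563 and an adjusted p of 0.999 in limma. Only Merit40-/- replicate 2 lay within the WT range, and the Merit40-/- arrays spread over more (SD 0.48) than the WT arrays (SD 0.13, n = 3 each). Kif2c (MCAK), the depolymerase that releases wrongly attached microtubules from centromeres, read 6.54, 6.51 and 5.99 in Merit40-/- and 7.10, 6.93 and 6.31 in WT. WT replicate 3 was below 2 of the Merit40-/- arrays, and the difference was -0.44 (SE 0.24). Kif18b, which works with Kif2c on the astral microtubules, read 6.84, 7.22 and 7.24 in Merit40-/- and 7.25, 6.98 and 7.33 in WT, the smallest difference of the 11 (-0.09, SE 0.16).

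The chromokinesins, which bind chromosome arms, differed by -0.31 and -0.23. Kif4, an X-linked gene whose product also limits the length of the central spindle, read 6.55, 6.81 and 6.27 in Merit40-/- and 6.97, 6.78 and 6.82 in WT. Merit40-/- replicate 2 lay inside the narrow WT range, and the difference was -0.31 (SE 0.16). Kif22 (Kid), which pushes chromosome arms toward the equator, read 7.36, 7.73 and 7.11 in Merit40-/- and 7.66, 7.82 and 7.40 in WT, with a difference of -0.23 (SE 0.19). Probes of Kif4 and the pseudogene Kif4-ps may share sequence, so a reading of either may include the other. Kif4-ps read 3.96, 4.27 and 4.19 in Merit40-/- and 4.22, 3.93 and 4.13 in WT, below the median of all genes on every array, and did not follow Kif4.

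The motors of the central spindle and of cytokinesis held the one member whose genotypes did not overlap. Kif20a (MKLP2), which carries the chromosomal passenger complex to the central spindle, read 6.44, 6.60 and 6.50 in Merit40-/- and 6.79, 6.89 and 6.64 in WT. All Merit40-/- arrays were below all WT arrays, with a difference of -0.26 (SE 0.12, adjusted p = 0.999 in limma), although the nearest arrays of the genotypes, at 6.60 and 6.64, lay close together. Such a separation toward lower values occurred in 1 of the 11 mitotic members and in 4.22% of all genes, and toward higher values in 0 members and 4.84% of all genes. In either direction it occurred in 1 of 38 kinesin genes, against 9.05% of all genes. Kif14, the partner of citron kinase, read 6.36, 6.80 and 6.46 in Merit40-/- and 6.72, 6.92 and 6.80 in WT (difference -0.27, SE 0.15). Kif20b, a kinesin of the midbody, read 7.51, 7.76 and 7.09 in Merit40-/- and 7.78, 7.85 and 7.56 in WT (difference -0.28, SE 0.18). In both, Merit40-/- replicate 2 lay among the WT arrays and the other 2 Merit40-/- arrays below them. Kif23 (MKLP1), which forms centralspindlin with Racgap1, read 7.76, 8.03 and 7.42 in Merit40-/- and 8.01, 7.9955 and 7.61 in WT, with a difference of -0.13 (SE 0.19) that is smaller than the SD of either genotype.

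**Figure D2:**
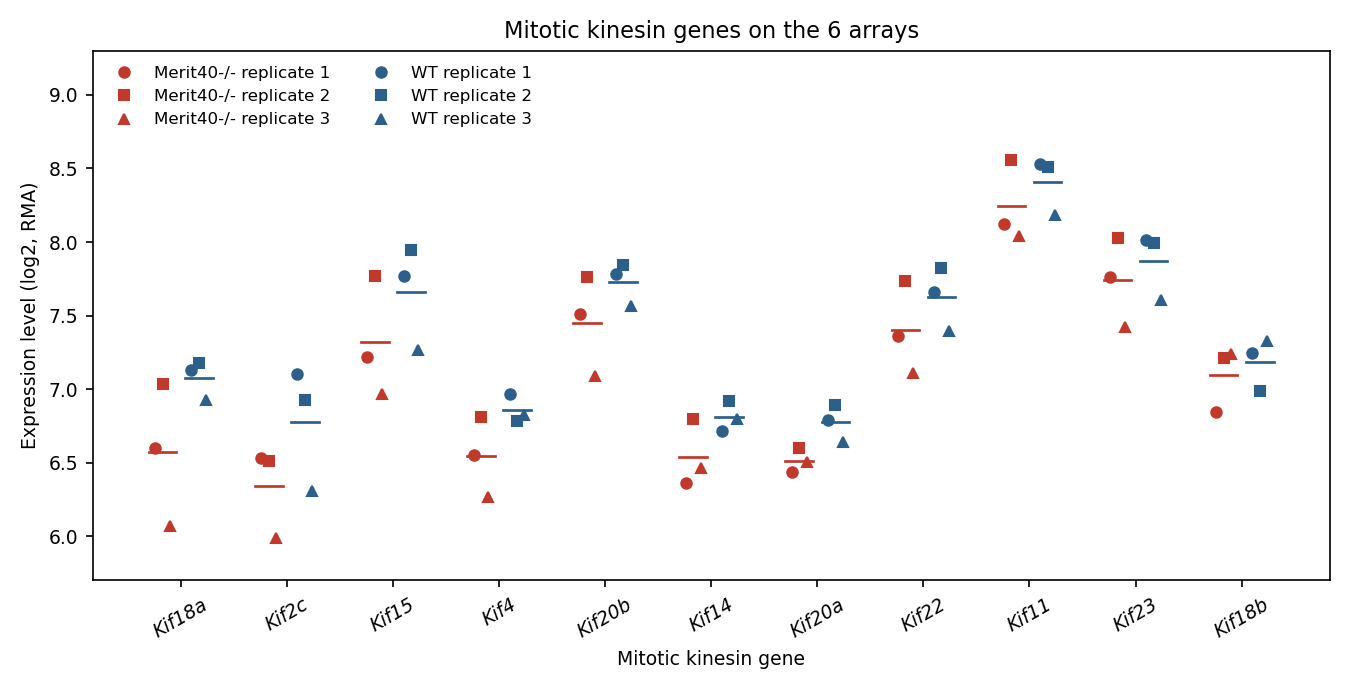
Levels of the 11 mitotic kinesin genes on each array (log2, y axis), ordered along the x axis by their difference. Points are arrays, shapes are replicate numbers, red is Merit40-/- and blue is WT, and horizontal lines are means of 3 arrays. Merit40-/- replicate 2 (red squares) is the highest Merit40-/- array in 9 of 11 genes, and the genotypes separate only in Kif20a.

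Read by array, most mitotic members were low and high on the same arrays, within as well as between genotypes. Merit40-/- replicate 3 was the lowest of all 6 arrays in 8 of the 11 mitotic members, where it was the lowest in 16.5% of all genes. Merit40-/- replicate 1 was the lowest in the remaining 3, Kif14, Kif18b and Kif20a, against 17.8% of all genes. Merit40-/- replicate 2 was the highest of its genotype in 9 of 11, against 33.4% of all genes, and WT replicate 3 was the lowest of its genotype in 8 of 11, against 32% of all genes. Relative to the WT mean of each gene, the 11 members averaged -0.32, 0.0030 and -0.51 in Merit40-/- replicates 1, 2 and 3, and 0.08, 0.09 and -0.18 in WT replicates 1, 2 and 3. Merit40-/- replicate 2 therefore lay inside the WT range, with 5 members below and 6 above their WT mean, whereas replicate 1 had 11 and replicate 3 had 10 below it. The other kinesin genes averaged between -0.02 and 0.02 on all 6 arrays. Among them, Merit40-/- replicate 3 was the lowest array in 5 of 27 and replicate 1 in 5 of 27.

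**Figure D3:**
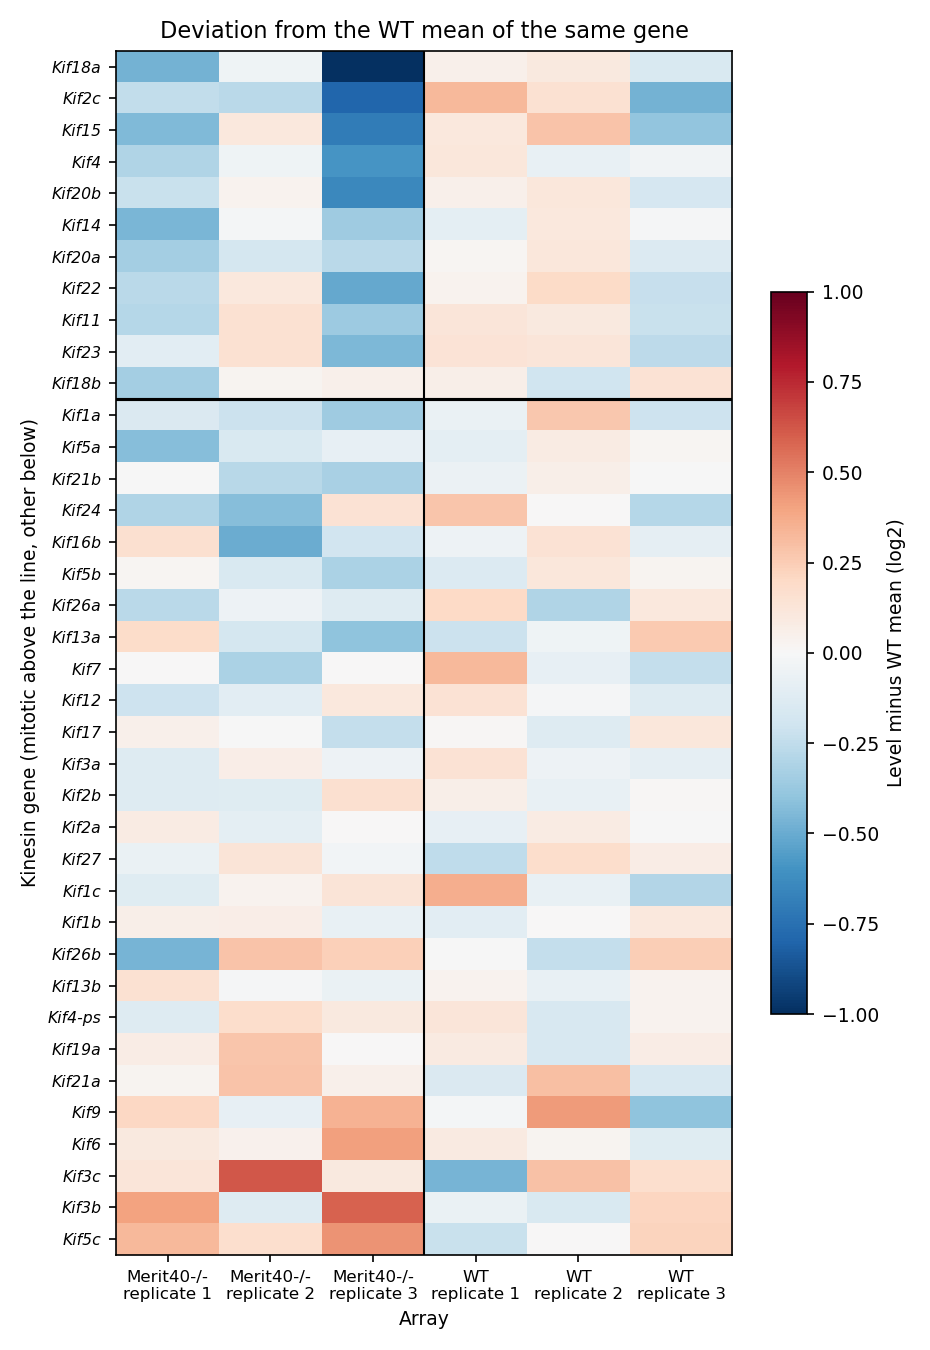
Deviation of each kinesin gene (rows) from its own WT mean on each array (columns), on the log2 scale of the colour bar, blue for lower and red for higher. The 11 mitotic members are above the horizontal line and the 27 others below it. Of the mitotic members, 11 lie below their WT mean in Merit40-/- replicate 1, 5 in replicate 2 and 10 in replicate 3, and 10 do in WT replicate 3.

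The spread between replicates was wider in the mitotic members than in the other kinesin genes. The median SD within a genotype was 0.26 for the mitotic members, 0.17 for the other kinesin genes and 0.18 over all genes. The median distance between the highest and lowest of the 6 arrays was 0.70, 0.50 and 0.49 in the same order. Some lists of brighter genes came nearer to the mitotic members, and others did not. The median SD was 0.20 for the 15 other kinesin genes above the median level of all genes. For the partners of mitotic kinesins and for the tubulin genes, both described below, it was 0.23. For the dynein and dynactin genes, of which 15 of 16 averaged above that level, it was 0.14. For the HSC markers, with 10 of 10 above it, it was 0.19. The 11 genes lie on chromosomes 1, 2, 4, 7, 9, 11, 18, 19 and X, with Kif15 and Kif23 on 9 and Kif11 and Kif20b on 19. All 11 averaged above the median level of all genes, at 6.56 to 8.33, while 12 of the 27 others averaged below it. Against the 15 brighter others alone, whose median difference was -0.06 (10 of 15 lower), the gap of the mitotic members was -0.21. For 37 of the 38 kinesin genes limma's 95% interval stayed between -1 and 1 on the log2 scale, which is a 2-fold change each way. The exception was Kif18a, whose interval reached -1.03.

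**Figure D4:**
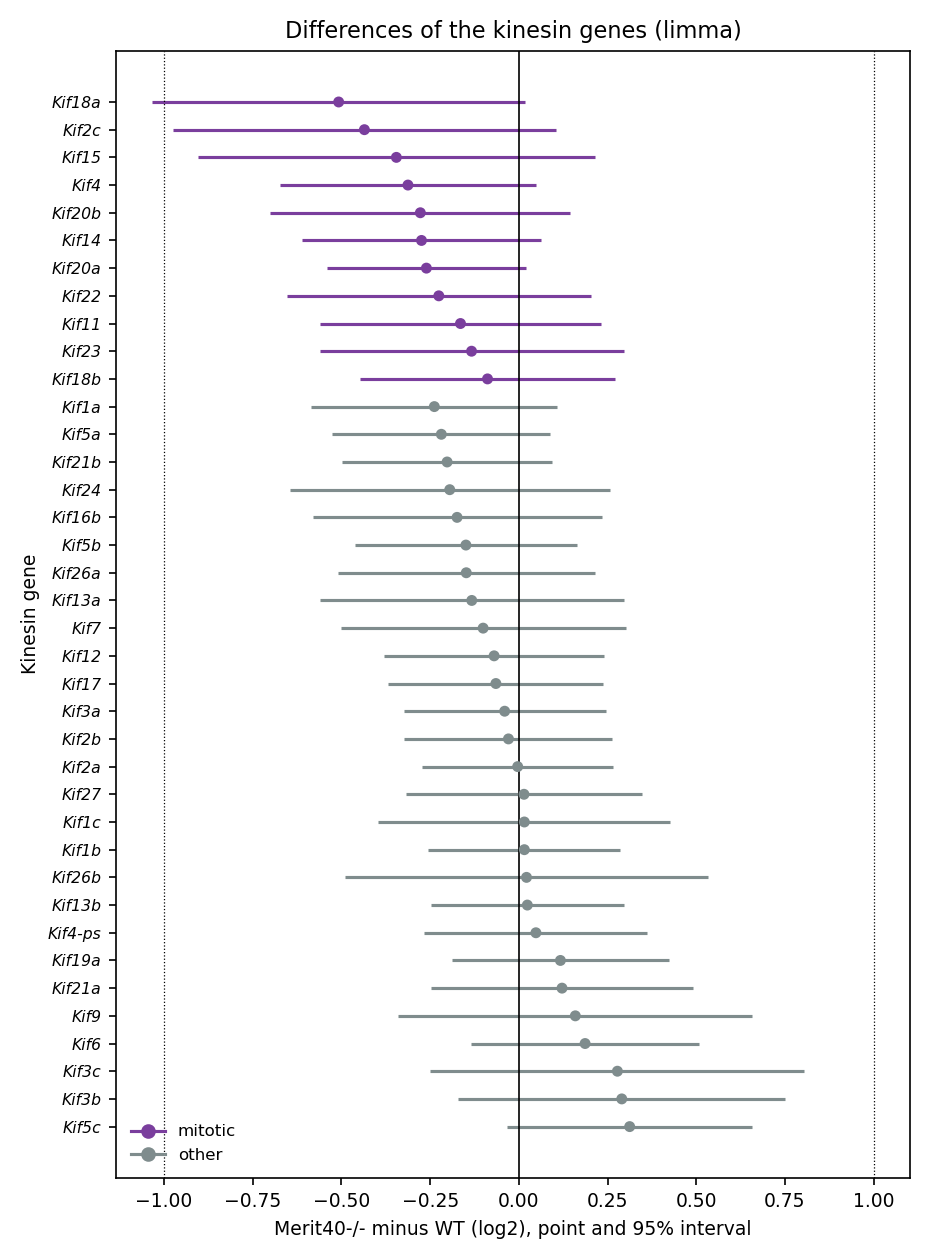
Difference between Merit40-/- and WT (x axis, log2, Merit40-/- minus WT) for the 38 kinesin genes, with limma's 95% interval as a line, mitotic members in purple and others in grey. Dotted lines mark a 2-fold difference. All 11 purple points lie left of 0, and all 38 intervals include 0.

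The transport kinesins were spread on both sides of 0. Of 13 measured, 7 were lower and 6 higher in Merit40-/-, with a median of -0.04 and 0 called. Kif5b, the kinesin-1 heavy chain of most cell types, read 8.28, 8.10 and 7.94 in Merit40-/- and 8.12, 8.37 and 8.29 in WT (difference -0.15, SE 0.14), with overlapping arrays. The neuronal heavy chains Kif5a and Kif5c, both below the median level of all genes, differed in opposite directions, at -0.22 (SE 0.13) and 0.31 (SE 0.15). Kif5c had the smallest unadjusted p of the other kinesin genes (0.0699, adjusted p = 0.999 in limma) and read 3.71, 3.56 and 3.84 in Merit40-/- and 3.16, 3.40 and 3.61 in WT. Merit40-/- replicate 2 was below WT replicate 3, so the genotypes overlapped.

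Kinesin-2 is the heterotrimer of Kif3a, Kif3b and the adaptor Kifap3 that builds cilia and carries cargo outward. Its 2 motor subunits did not share a direction. Kif3b read 6.72, 6.18 and 6.90 in Merit40-/- and 6.25, 6.16 and 6.53 in WT (difference 0.29, SE 0.20), and Kif3a read 6.32, 6.52 and 6.40 in Merit40-/- and 6.60, 6.40 and 6.37 in WT (difference -0.04, SE 0.12). Kif3c, an alternative partner of Kif3a, read 5.74, 6.24 and 5.72 in Merit40-/- and 5.16, 5.92 and 5.79 in WT, a difference of 0.28 (SE 0.23) that was below the SD in Merit40-/- (0.29) and in WT (0.41). Without Merit40-/- replicates 1 and 3 the Kif3b difference was -0.13. Among the vesicle motors of the kinesin-3 family, Kif1a, mainly a neuronal gene and dim here, differed by -0.24 (SE 0.15). Kif16b, a motor of early endosomes, differed by -0.17 (SE 0.18), Kif13a by -0.13, Kif13b by 0.02, Kif1b by 0.02 and Kif1c by 0.02. Kif17 differed by -0.06.

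Ciliary kinesins and the remaining members also lay on both sides of 0. Of 6 genes tied to cilia, 2 were lower and 4 higher, with a median of 0.07 and differences from -0.19 for Kif24, which restrains cilium formation at the centriole, to 0.19 for Kif6. Kif7, the Hedgehog pathway kinesin of the cilium tip, differed by -0.10, Kif9 by 0.16, Kif19a by 0.12 and Kif27 by 0.01. Of 7 measured genes of microtubule control and other roles, 5 were lower and 2 higher. Kif2a, a depolymerase at the spindle poles and a relative of Kif2c, had the narrowest range of the 38 genes, at 9.56, 9.38 and 9.48 in Merit40-/- and 9.39, 9.56 and 9.47 in WT (difference -0.0033, SE 0.12). The 6 arrays of Kif2a spanned 0.18, against 1.11 for Kif2c. Kif21b, which limits microtubule growth, read 6.60, 6.33 and 6.28 in Merit40-/- and 6.54, 6.66 and 6.60 in WT (difference -0.20, SE 0.13), and its relative Kif21a differed by 0.12. Kif26a and Kif26b, kinesins without motor activity, differed by -0.15 and 0.02, Kif12 by -0.07 and Kif2b by -0.03.

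Of 5 kinesins outside the symbol rule, 4 were lower and 1 higher in Merit40-/-, with 0 called. Cenpe, the kinesin-7 motor of the kinetochore, read 6.90, 7.23 and 6.68 in Merit40-/- and 7.48, 7.47 and 7.13 in WT. Its difference of -0.42 (SE 0.17) had an unadjusted p of 0.0409 and an adjusted p of 0.999 in limma, and Merit40-/- replicate 2 was again the highest of its genotype. Kifc1, a minus-end motor that bundles spindle poles, went the other way at 0.08 (SE 0.15), although it too works in mitosis, and it may share probe sequence with Kifc5b (-0.10). Kifc3 differed by -0.14 and Kifc2 by -0.01. The 9 measured light chains and adaptors of transport kinesins had 3 lower and 6 higher, from -0.12 for the light chain Klc4 to 0.20 for the Kif1b partner Kifbp, with 0 called.

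Partners of the mitotic kinesins were also low in Merit40-/- replicates 1 and 3. Of 18 measured, 17 were lower and 1 higher in Merit40-/-, with a median of -0.24 and 0 called. The kinetochore gene Kntc1 differed most (-0.42, SE 0.17) and Racgap1, the partner of Kif23, was the exception (0.09, SE 0.17). Relative to the WT mean these genes averaged -0.36 in Merit40-/- replicate 1, 0.0015 in replicate 2 and -0.33 in replicate 3. Genotypes did not overlap in 2 of 18 partners, both lower, against 4.22% of all genes toward lower values. These were the chromosomal passenger genes Birc5 (-0.31) and Cdca8 (-0.36), whose complex depends on Kif20a for its relocation. Aurkb (-0.18) and Incenp (-0.07), of the same complex, had overlapping genotypes. TTTGAA was present in 12 of 15 partner promoter windows (80%). This list was drawn up with the low values of mitotic genes in these arrays already known, so its direction adds no separate evidence.

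Other parts of the microtubule system had medians closer to 0. Of 16 measured dynein and dynactin genes, 5 were lower and 11 higher, with a median of 0.03. They encode the motor that runs opposite to most kinesins, its activator dynactin, and the dynein regulators Pafah1b1, Nde1 and Ndel1. Both extremes were regulators, at -0.29 for Ndel1 and 0.31 for Nde1. The 12 measured tubulin genes had a median of -0.05, with 7 lower and 5 higher. Tubb4a had the most negative value (4.48, 3.74 and 4.04 in Merit40-/-, against 5.14, 4.74 and 4.80 in WT; difference -0.81, SE 0.20, adjusted p = 0.999 in limma) and Tubb3 the most positive (0.28, SE 0.16). In both lists 0 genes were called. The genotypes did not overlap in 2 of 16 dynein and dynactin genes, both higher, against 4.84% of all genes toward higher values. Among tubulin genes this held for 1 of 12, which was lower, against 4.22% of all genes toward lower values.

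Erythroid markers were mostly lower in Merit40-/- HSCs. In Merit40-/- replicate 2 their median deviation lay below all WT arrays, but their mean deviation lay within the WT range. Of 9 measured, 7 were lower and 2 higher in Merit40-/-, with 0 called. Their median deviation from the WT mean was -0.24, -0.21 and -0.27 in Merit40-/- replicates 1 to 3, with 7, 6 and 7 of the 9 below it, and 0.23, 0.02 and -0.08 in WT replicates 1 to 3. Their mean deviation was -0.44, -0.11 and -0.37 in Merit40-/- replicates 1 to 3 and 0.27, -0.15 and -0.12 in WT replicates 1 to 3. The log2 of their summed signal was 11.6 in each Merit40-/- array and 11.6 to 11.7 in the WT arrays, with overlapping genotypes. That sum mainly follows Car2, the brightest of these markers (mean level 11.2), and says little about the others. Gata1, the erythroid and megakaryocytic transcription factor, read 6.86, 7.29 and 7.23 in Merit40-/- and 7.54, 7.55 and 7.41 in WT, without overlap (adjusted p = 0.999 in limma). Such a separation toward lower values occurred in 1 of the 9 erythroid markers, against 4.22% of all genes. Toward higher values it occurred in 0 of them, against 4.84% of all genes. Klf1, which drives the red cell programme, read 5.28, 5.29 and 5.14 in Merit40-/- and 5.75, 5.60 and 5.22 in WT. The most negative differences of these markers were those of Ermap (-0.90, SE 0.32) and Car1 (-0.84, SE 0.30), both with overlapping genotypes. Rhag, a red cell membrane protein gene, differed the other way at 0.43 (SE 0.30), with 6.53, 7.11 and 6.41 in Merit40-/- and 6.74, 6.41 and 5.62 in WT, and Car2 differed by 0.07. Granulocyte markers mostly went the other way, with 8 of 11 higher and 3 lower in Merit40-/- and 0 called. Their mean deviation was 0.49, 0.40 and -0.14 in Merit40-/- replicates 1 to 3 and 0.20, -0.05 and -0.15 in WT replicates 1 to 3. The part of committed erythroid or granulocytic cells in the mitotic kinesin values was not tested.

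**Figure D5:**
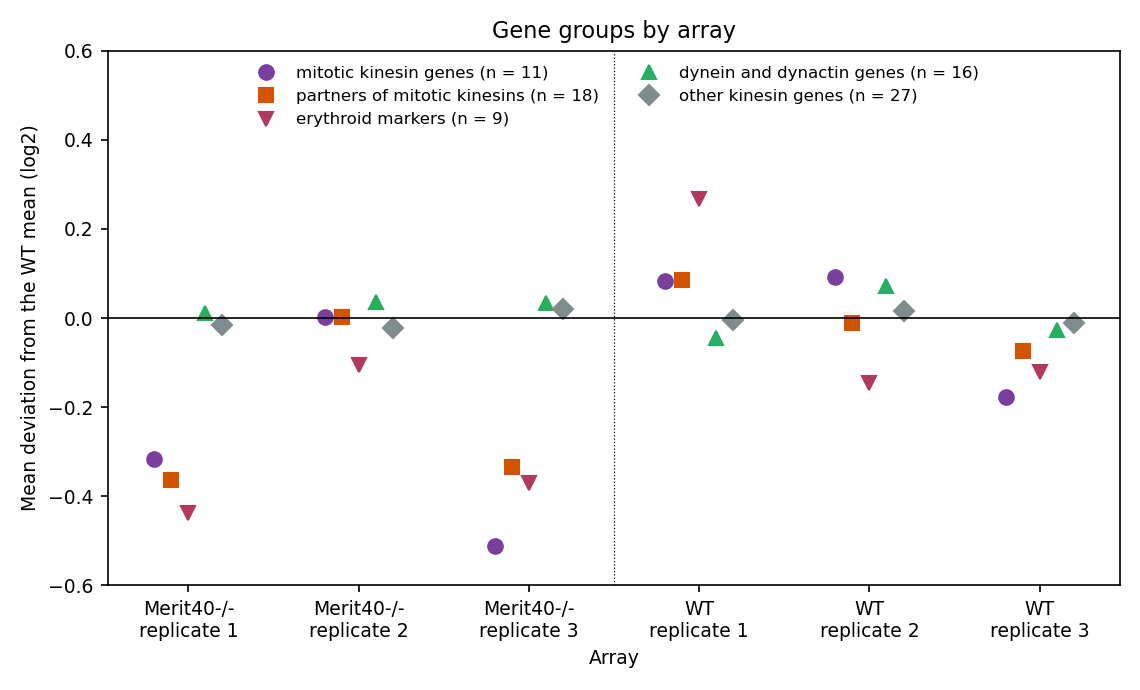
Mean deviation from the WT mean of each gene (log2, y axis) on each array (x axis) for 5 gene groups, with the number of genes in the legend. The mitotic kinesin genes and their partners lie below 0 in Merit40-/- replicates 1 and 3 and near 0 in replicate 2, the erythroid markers lie below 0 on all arrays but WT replicate 1, and the other kinesin genes and the dynein and dynactin genes stay within 0.1 of 0 on all arrays.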

How the data were processed

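The deposited log2 values come from Affymetrix GeneChip Mouse Gene 2.0 ST arrays, and the authors computed them by RMA with affy, as named in the labels and per the submitters' processing notes. Their versions and chip definition: not given in the sources used here. Per the labels, 50 ng of total RNA per array was amplified. Of 25206 probe sets, named by Entrez Gene number, 23185 had 1 symbol, 0 had several and 2021 were unnamed here, and the Entrez numbers of all 23185 were in the RefSeq gene table.

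Merit40-/- was compared with WT in limma 3.58.1 (R 4.3.3, genotype as the only term, 2-sided, Benjamini-Hochberg adjustment over 23185 genes, no filter on level). The procedure was tested on simulated data. Gene lists got counts and medians, with no test. The members, lists and tests were chosen with earlier results of these data known. The named genes are all mitotic members and the extremes of each list of kinesin, partner and microtubule genes. Of the other kinesin genes, those with the 4 highest, 4 lowest and 4 most significant differences and the 4 highest levels were named. Marker lists were outside this rule. Further genes were named after their values were seen. Markers of granulocytes, lymphoid cells, multipotent progenitors and stroma had mean differences (Merit40-/- minus WT, log2) of 0.25, 0.01, 0.03 and -0.03 (11, 8, 5 and 7 genes).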

Additional observations from a re-analysis of the deposited data

How the results depend on the processing

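No kinesin gene was called under any of the 15 alternatives. The count over all genes was 0 in the unmoderated linear model and 2 without Merit40-/- replicates 1 and 3 together, where the lone Merit40-/- array is assumed to vary like WT; elsewhere it was 1, with the replicate block too. With the replicate block 3 mitotic members had an unadjusted p under 0.05, and without it 0. That number was 5 without Merit40-/- replicate 2, 2 without WT replicate 3, 1 with quantile normalization, 1 in the unmoderated model and 0 under the other alternatives. Wherever that number was above 0, the share over all genes lay between 4.17% and 4.65%. With the block the median differences were the same (-0.27 and -0.0033). Deviations of same-numbered arrays correlated at -0.05, -0.0027 and 0.04 over all genes, and so showed no pairing across the whole set. In the mitotic members, WT replicate 3 was the lowest of its genotype in 8 of 11. Merit40-/- replicate 3 was the lowest of all arrays in 8 of 11. Whether same-numbered arrays belong together was not tested in these members. With 1 array left out, the mitotic median ranged from -0.40 to -0.17, the median of the others from -0.066 to 0.0016 and their gap from -0.39 to -0.14. Without Merit40-/- replicates 1 and 3 together these were 0.028, -0.050 and 0.078. The median of the others was -0.034 with array weights and -0.065 without the dimmest 50% of genes or, an alternative chosen after seeing the data, with only its 15 members above the median level. With both arrays left out the sign turned for Kif11 (0.15), Kif15 (0.11), Kif18b (0.028), Kif20b (0.032), Kif22 (0.11), Kif23 (0.16), Kif3b (-0.13) and Kif13b (-0.0090), and for Kif2a with array weights (0.0066) and median centring (0.0082). With 1 array left out, signs also turned for Kif18b (-0.19 to 0.039), Kif23 (-0.28 to 0.024), Kif13b (-0.040 to 0.071) and Kif2a (-0.046 to 0.044). Precision is limited by 3 arrays a genotype, with a median 95% half-width of 0.342 over all genes.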
